A study of Arabidopsis thaliana with 8 samples.

Results

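The comparison described here set leaves and shoot apices of *Arabidopsis* plants that had spent 4 h in simulated shade against those of plants that had spent 1 h in it. It uses 4 of the 8 libraries of the series, 2 at each time, and 18597 of the 33602 genes in the expression table, namely those with a CPM, the read count of a gene scaled to the size of its library, of at least 1 in at least 2 of these 4 libraries. All plants were wild type of the ecotype Col. Shade, which was white light with added far-red light and an unchanged amount of photosynthetically active light, began 4 h after dawn (zeitgeber time, ZT 4), so the shade libraries were harvested at ZT 5 and ZT 8, and the time of day and the time spent in shade changed together and cannot be told apart within shade. The other 4 libraries came from plants left in simulated sun and harvested at the same 2 times, again 2 libraries a time. Each library was made from 5 pooled plants without cotyledons, hypocotyls or roots, so a replicate is a pool, and the p-values measure the spread between such pools. Because the tissue was mixed, a smaller share of cells of a type and less RNA per cell cannot be told apart in these values.

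As background, plants sense the light reflected by neighbours through phytochrome, which loses its active form as far-red light increases relative to red. PHYTOCHROME-INTERACTING FACTOR (PIF) proteins then accumulate and switch on auxin synthesis, Aux/IAA and SAUR genes, class II HD-ZIP factors and small helix-loop-helix proteins that together drive elongation. The same leaves also run a circadian clock, a set of repressors that follow each other from dawn (CCA1, LHY) through the day (the PRR proteins) to the evening (TOC1, LUX, ELF3, ELF4), and through it many light-harvesting, starch and cold-regulated genes peak at set hours.

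The libraries held between 3449191 and 4680620 reads, with the exception of replicate 1 of 4 h shade, which held 1154019. A single read was therefore worth 0.856 CPM in that library and 0.216 to 0.291 CPM in the others, and counting error alone at 10 CPM was 29.3% there and 14.7% to 17.0% elsewhere. The Spearman correlation of CPM between the 2 replicates was 0.947 for 4 h shade and 0.973 to 0.984 for the other conditions. Where both libraries of a time held 3 reads or fewer, the level was treated as a floor and a fold change is given as a lower bound against 3 reads per library. Markers of leaf mesophyll were abundant in all 8 libraries (summed 32583 to 44444 CPM over 6 genes), and those of flowers were nearly absent (at most 1.74 CPM summed over 4 genes), as were those of seeds (at most 1.08 CPM over 3 genes). Of the 8 shoot apex markers, 1 to 4 were at 0 in a library, among them *WUS*, at 0 in all 8, and the sum of 93.3 to 114.2 CPM was mostly *CLV1*. Among the 12 root markers, 3 to 7 were at 0 in a library, and *EXPA7* and *IRT1* were at 0 in every one. The sum of 181.8 to 269.9 CPM came mostly from *GL2*, which leaf hairs express too, with *SCR* at 25.0 to 47.0 CPM and *SHR* at 17.2 to 27.4 CPM, both also expressed in leaves. *WER* was at 9.49 CPM in replicate 2 of 1 h sun and at most 1.16 CPM elsewhere.

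Between 1 and 4 h of shade, 394 genes rose and 372 fell at an adjusted p below 0.05 (limma on log2(CPM + 1), Benjamini-Hochberg over all tested genes). These 766 calls were 4.12% of the tested genes, with 2.12% rising and 2.0% falling. At the study's own stricter false discovery rate of 0.001, 25 rises and 26 falls were left. The typical change was about 2-fold, with a median log2 change of 1.02 among the rises and -1.06 among the falls, and 46 rises and 47 falls were past 4-fold on this scale. All 766 genes had their 2 libraries of 4 h on one side of the 2 libraries of 1 h, as had 46.5% of all tested genes. The median log2 change over all tested genes was 0.03. A count test on the recovered reads, edgeR's quasi-likelihood test, called 759 genes with a different balance, 311 rises and 448 falls. Leaving out single libraries moved the count widely: 201 and 151 genes were called without replicate 1 or 2 of 1 h shade, 427 and 3483 without replicate 1 or 2 of 4 h shade, and 377 to 452 without 1 of the sun libraries. Of the 394 rises and 372 falls, 181 and 165 were still called without the shallow replicate 1 of 4 h shade.

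The 15 largest of each were *PCC1*, *ACD6*, *JMJD5*, *RVE2*, *TPS04*, *SAG13*, *PAD3*, AT4G33980, *WRKY54*, *CYP71A13*, *COR27*, *RK3*, *NAC019*, AT2G25510 and AT2G30766 upwards, and *MAKR6*, *PORA*, AT3G16117, *IAA5*, AT5G66580, *LHCB2.3*, *SAUR23*, *PRE1*, *PRR9*, *LNK3*, *NDA1*, *KDR*, *BBX29*, AT1G26500 and AT3G21320 downwards. In the plants left in sun, 8 of these 15 rises and 5 of these 15 falls were called in the same direction between the same hours, and the other 7 and 10 did not pass the test there.

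**Figure D1:**
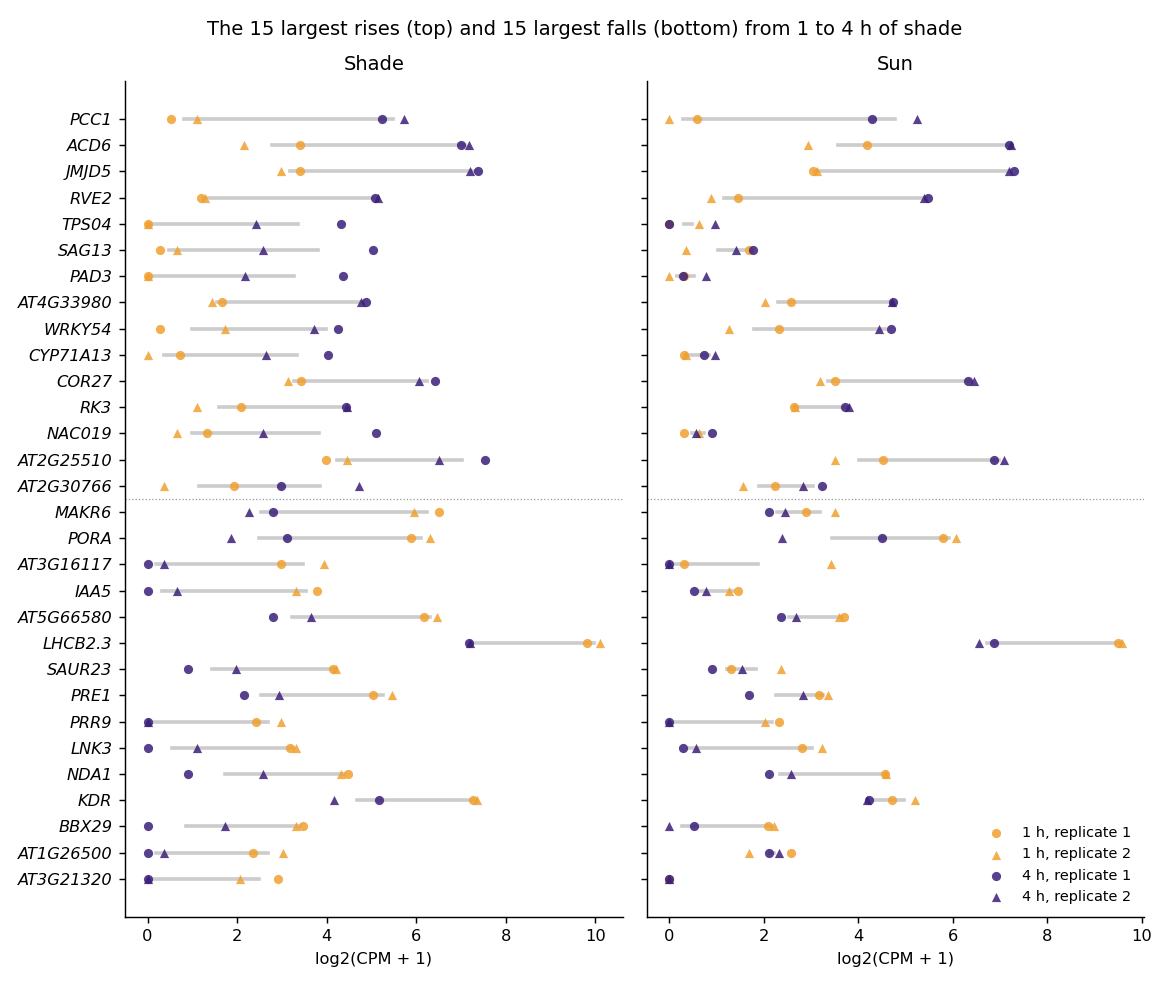
Level of the 15 genes with the largest rise and the 15 with the largest fall from 1 to 4 h of shade, in the 4 shade libraries (left) and the 4 sun libraries (right). The horizontal axes give log2(CPM + 1), circles and triangles are replicates 1 and 2, and grey bars join the means of the 2 times. In shade no 1 h symbol lies among the 4 h symbols of its gene. In sun *PCC1*, *ACD6*, *JMJD5* and *RVE2* moved the same way, by 4.48, 3.64, 4.15 and 4.27 on this scale, whereas the *MAKR6* levels at 1 h were 6.48 and 10.3 CPM against 90.0 and 60.9 CPM in shade.

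In shade, the calls among clock genes of the morning were falls with 1 exception, and those among genes of the afternoon and evening were rises. They were 53.8% and 42.1% of the tested members, against 4.12% of all tested genes. Of 13 tested genes on the morning list, 6 fell and 1 rose, with a list median of -1.33 log2 units in shade and -1.79 in sun. Without replicate 1 of 4 h shade 4 fell with a median of -0.73, and without replicate 2 10 fell with a median of -1.80. Of 19 tested genes on the afternoon and evening list, 8 rose and none fell by this test (limma), with a median of 0.53 in shade and 0.06 in sun. Of the 19, 7 were lower at 4 h of shade, and in sun 7 were called as rises and 3 as falls. The shade median of this list was 0.50 without replicate 1 and 0.50 without replicate 2 of 4 h shade. *PRR9*, an early daytime repressor of *CCA1* and *LHY*, stood at 4.33 and 6.90 CPM at 1 h of shade and at 0 in both libraries of 4 h, where 3 reads would have been 2.57 and 0.872 CPM. It was at least 3.26-fold lower at 4 h (log2 change -2.70 ± 0.43 SE, adjusted p = 0.00377), and it was also at 0 in both sun libraries of 4 h, after 3.98 and 3.07 CPM at 1 h. The LNK proteins are coactivators that work with the REVEILLE factors of the morning. *LNK2* levels were 77.2 and 96.3 CPM at 1 h and 15.4 and 22.7 CPM at 4 h of shade (log2 change -2.15 ± 0.20, adjusted p = 6.91e-05), and 84.2 and 90.2 CPM and 15.2 and 15.7 CPM at the same times in sun. *LNK4* went from 9.95 and 20.4 to 2.57 and 1.45 CPM in shade and *LNK3* from 8.0 and 8.91 to 0 and 1.16 CPM. In sun *LNK4* went from 9.46 and 11.2 to 0.441 and 0.475 CPM and *LNK3* from 5.98 and 8.37 to 0.221 and 0.475 CPM, so all 3 genes fell in both lights. *LNK1* and *PRR7* fell less, by 0.78 and 0.62 log2 units in shade, next to sun changes of -1.79 and -1.45. For *CCA1* and *LHY* themselves the shade changes of -1.12 and -1.57 log2 units did not pass the test (adjusted p = 0.126 and 0.0831).

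On the rising side, *RVE2*, a MYB-like relative of *CCA1*, was at 1.3 and 1.44 CPM at 1 h and 32.5 and 34.6 CPM at 4 h of shade. That was a 24.5-fold rise of the mean (log2 change 3.87 ± 0.30, adjusted p = 2.07e-05), and the sun libraries went from 1.74 and 0.837 to 43.9 and 40.8 CPM. *JMJD5*, a jumonji-domain protein of the clock, rose 19.0-fold, from 9.52 and 6.90 to 164 and 147 CPM (adjusted p = 1.60e-07), and from 7.22 and 7.81 to 156 and 145 CPM in sun. The 2 times were far apart in both lights and the replicates close together. *COR27*, a cold- and light-regulated repressor of clock genes, had 9.73 and 7.76 CPM at 1 h and 83.9 and 66.0 CPM at 4 h of shade (log2 change 2.96 ± 0.21, adjusted p = 1.61e-05). AT4G33980, which the annotation leaves uncharacterized, rose 14.0-fold, from 2.16 and 1.72 to 28.3 and 26.2 CPM. The evening complex of ELF3, ELF4 and LUX represses growth and *PRR9* at dusk, and all 3 of its genes rose. *ELF4* did so the most, from 19.9 and 21.8 to 78.8 and 90.7 CPM (log2 change 1.97 ± 0.17, adjusted p = 4.84e-05), ahead of *LUX* (1.17) and *ELF3* (0.68). *TOC1*, the evening repressor of *CCA1*, went from 84.1 and 75.6 to 239 and 216 CPM (log2 change 1.5 ± 0.14), and *BOA*, a close relative of *LUX*, from 3.89 and 2.3 to 13.7 and 13.4 CPM. In sun *TOC1* moved from 78.5 and 94.1 to 238 and 223 CPM, and the difference of its shade and sun changes was 0.08 ± 0.20 log2 units (adjusted p = 0.973). *GI*, a large clock protein of the afternoon, did not pass the test in shade (log2 change 0.03, adjusted p = 0.926) and was called in sun (-0.69, adjusted p = 0.0233), and the difference between its changes did not pass (adjusted p = 0.732).

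**Figure D2:**
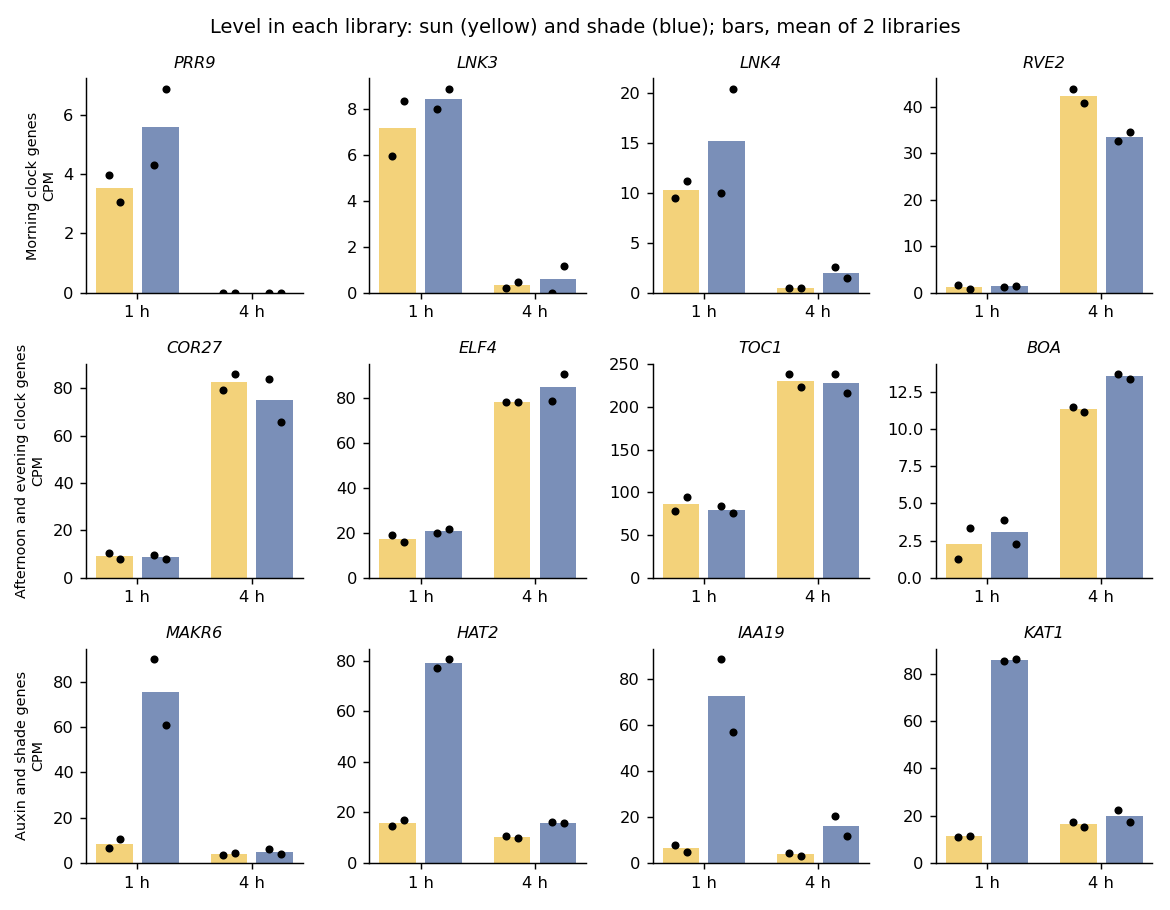
CPM of 12 genes in each library, with sun in yellow and shade in blue, 1 h on the left and 4 h on the right of each panel. Bars are means of 2 libraries, points the libraries, and every vertical axis starts at 0. The 8 clock genes of the upper rows differ between the times in sun as in shade, and the 4 genes of the lowest row are highest in the 2 libraries of 1 h shade.

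The evening element, a promoter sequence bound by clock MYB factors, and the G-box, bound by PIF and other light-signalling factors, were searched in the 300 bases before each gene start of the RefSeq TAIR10.1 annotation, on both strands. The evening element (AAAATATCT, or AGATATTTT on the other strand) was present before 34 of 382 rising genes with such a window (8.90%), before 13 of 361 falling genes (3.60%), before 543 of 17968 tested genes (3.02%) and before 2.79% of all 27443 protein-coding genes. The G-box (CACGTG, the same on both strands) was present before 9.16% of the rising, 8.03% of the falling and 8.06% of the tested genes, and before 7.09% of all. For the related site of CCA1 (AAAAATCT, or AGATTTTT) the shares were 9.95%, 9.70%, 8.16% and 7.94%, for the auxin response element (TGTCTC, or GAGACA) 11.8%, 15.51%, 12.8% and 12.97%, and for the telo box (AAACCCT, or AGGGTTT), found before many ribosomal protein genes, 4.71%, 11.1%, 7.61% and 8.51%. A match is a description of letters and shows no binding, and the shares were not tested. Of the 4 largest rises and 4 largest falls only *RVE2* and *PORA* had an evening element or a G-box in the window, and their windows are printed here together with that of *PRR9*, chosen after its values were seen because it holds 2 matches. Capitals mark the evening elements and G-boxes. The windows lie at chr5:14753089-14753388 (minus strand) for *RVE2*, chr5:21992815-21993114 (minus strand) for *PORA* and chr2:19232307-19232606 (plus strand) for *PRR9*.
RVE2: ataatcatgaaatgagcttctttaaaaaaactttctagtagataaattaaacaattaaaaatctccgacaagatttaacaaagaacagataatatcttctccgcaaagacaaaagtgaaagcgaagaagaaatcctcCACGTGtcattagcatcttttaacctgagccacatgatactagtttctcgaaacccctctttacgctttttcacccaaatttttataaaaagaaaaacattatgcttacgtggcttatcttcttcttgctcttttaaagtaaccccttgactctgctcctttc
PORA: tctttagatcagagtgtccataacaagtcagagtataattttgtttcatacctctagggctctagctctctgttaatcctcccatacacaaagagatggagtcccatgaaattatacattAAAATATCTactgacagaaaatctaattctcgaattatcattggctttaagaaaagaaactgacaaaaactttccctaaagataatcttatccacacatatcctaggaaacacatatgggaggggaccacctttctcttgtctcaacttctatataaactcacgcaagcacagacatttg
PRR9: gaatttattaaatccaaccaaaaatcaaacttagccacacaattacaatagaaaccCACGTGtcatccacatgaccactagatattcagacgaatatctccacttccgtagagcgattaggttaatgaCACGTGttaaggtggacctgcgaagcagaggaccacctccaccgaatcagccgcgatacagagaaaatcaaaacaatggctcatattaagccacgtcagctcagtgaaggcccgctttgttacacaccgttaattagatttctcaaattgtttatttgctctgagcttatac

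*PORA*, which fell, holds an evening element that begins 180 bases before its start. *PRR9*, which fell, has G-boxes 244 and 172 bases before its start, and *RVE2*, which rose, has 1 at 163 bases. *PRR9* was chosen for its matches, so these windows do not show how the G-box is spread between the directions. Over all called genes it stood before 9.16% of the rising and 8.03% of the falling ones.

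Calls among genes of the light-harvesting antenna and of chlorophyll synthesis were falls. Of 49 tested photosystem and antenna genes 12 fell and none rose (limma), or 24.5% called against 4.12% of all tested genes. The median log2 change was -0.34 in shade and -0.11 in sun. In shade it was -0.29 without replicate 1 of 4 h and -0.39 without replicate 2. The LHCB2 proteins bind chlorophyll in the mobile antenna of photosystem II. *LHCB2.3* dropped 6.91-fold, from 902 and 1099 CPM at 1 h to 144 and 146 CPM at 4 h of shade (log2 change -2.77 ± 0.15, adjusted p = 6.74e-07), and went from 728 and 763 to 117 and 93.3 CPM in sun. *LHCB2.1* was at 998 and 739 and then 171 and 233 CPM in shade, and *LHCB2.2* at 1128 and 982 and then 265 and 293 CPM. These 3 genes are near-identical in sequence, so how reads were shared between them is uncertain. *CAB2*, an antenna protein of the LHCB1 kind, fell 3.44-fold (5608 and 5588 to 1249 and 2005 CPM, adjusted p = 7.75e-04). The other falls were *CAB3*, *LHB1B1*, *LHB1B2*, *LHCB3*, *LHCB4.2*, *LHCB5* and *LHCA4*, again antenna genes, and AT1G51400, a photosystem II protein (log2 change -0.69).

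Chlorophyll synthesis had 6 falls and no rises among 24 tested genes (limma), or 25.0% called against 4.12% of all tested genes. The median log2 change was -0.21 in shade and -0.02 in sun. *PORA*, the protochlorophyllide reductase that is most abundant in dark-grown seedlings, stood at 57.8 and 78.7 CPM at 1 h and 7.71 and 2.62 CPM at 4 h of shade, a 13.2-fold fall (log2 change -3.61 ± 0.53, adjusted p = 0.00210). Its sun levels were 54.5 and 66.1 CPM at 1 h and 21.8 and 4.27 CPM at 4 h, so the 2 sun pools of 4 h were far apart. *HEMA1*, which makes the first committed enzyme of the pathway, went from 502 and 419.9 to 241 and 189 CPM (log2 change -1.10), *GUN4*, an activator of magnesium chelatase, from 196 and 225 to 89.9 and 95.0 CPM (-1.18) and *CAO*, which makes chlorophyll b, from 175 and 186 to 80.5 and 70.0 CPM (-1.26). Sun changes of these 3 genes were -1.44, -1.12 and -1.57. *NDA1*, an alternative NAD(P)H dehydrogenase of mitochondria, fell from 21.2 and 19.0 to 0.856 and 4.94 CPM in shade and went from 22.7 and 23.2 to 3.31 and 4.99 CPM in sun.

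The calls among Aux/IAA, SAUR and shade avoidance genes were all falls, and most members of each list did not pass the test. Among 24 tested Aux/IAA genes, which encode short-lived repressors that auxin both induces and degrades, 8 fell and none rose (limma). Of 50 tested SAUR genes, small auxin-induced activators of cell expansion, 10 fell and none rose. The shade avoidance list had 9 falls and no rise among 34 tested genes. The list medians were -0.81, -0.91 and -0.65 log2 units in shade, beside -0.27, -0.23 and -0.28 in sun (with genes at the floor set to their bound, the SAUR median was -0.86). Without replicate 1 of 4 h shade 9, 4 and 8 members fell, and without replicate 2 10, 17 and 10. The shade avoidance median was -0.86 without the first and -0.36 without the second. In sun 1, 1 and 5 members of the 3 lists were called as falls.

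*MAKR6*, a membrane-associated protein related to a brassinosteroid receptor inhibitor, had the largest fall of all. Its levels were 90.0 and 60.9 CPM at 1 h and 5.99 and 3.78 CPM at 4 h of shade, a 15.4-fold fall (log2 change -3.70 ± 0.33, adjusted p = 4.84e-05). In sun it was at 6.48 and 10.3 CPM and then 3.31 and 4.51 CPM, so the 1 h shade level stood alone. The difference of its shade and sun changes was -2.78 ± 0.46 and did not pass the test over all genes (adjusted p = 0.0870). *IAA5* fell from 12.8 and 8.91 CPM to a 4 h level at the floor (0 and 0.581 CPM), at least 6.30-fold (adjusted p = 0.00125), with 1.74 and 1.40 CPM and 0.441 and 0.712 CPM in sun. *IAA19*, an Aux/IAA gene of elongating tissue, fell 4.53-fold, from 88.9 and 56.9 to 20.6 and 11.6 CPM (adjusted p = 0.00377). Its 4 h shade level was above the sun level of 4.41 and 3.09 CPM. *IAA1* went from 41.3 and 30.2 to 9.42 and 6.98 CPM, *IAA29*, a direct target of the PIF proteins, from 84.8 and 75.3 to 42.0 and 12.5 CPM and *IAA2* from 142 and 119.8 to 71.9 and 43.0 CPM, next to 4 h sun levels of 5.29 and 4.04, 2.21 and 1.90 and 17.9 and 17.8 CPM. The 4 h libraries of shade were thus below those of 1 h shade and above those of 4 h sun for each of these 3 genes. *IAA30*, a member without the usual degradation motif, fell to the floor, at least 4.60-fold.

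The SAUR genes that fell were led by *SAUR23*, at 16.7 and 17.5 CPM at 1 h and 0.856 and 2.91 CPM at 4 h of shade (log2 change -2.75 ± 0.47, adjusted p = 0.00646), beside 1.49 and 4.19 CPM and 0.882 and 1.90 CPM in sun. *SAUR62* went from 17.5 and 15.52 to 2.57 and 3.20 CPM, *SAUR29* from 13.6 and 22.1 to 1.71 and 4.94 CPM and *SAUR68* (AT1G29510) from 9.52 and 5.75 to 1.71 and 0.581 CPM. Neighbouring SAUR genes are close copies, and the share of reads counted to each is uncertain. *SAUR13* had values identical to those of AT4G38820 in all 8 libraries, 1 of 4 such pairs among the called genes, so reads of those genes could not be told apart.

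Among the transcription factors and cofactors of shade avoidance, *HAT2*, a class II HD-ZIP factor, fell 4.94-fold, from 77.2 and 80.8 to 16.3 and 15.7 CPM (log2 change -2.24 ± 0.20, adjusted p = 5.10e-05), and reached levels near those in sun (14.4 and 17.0 CPM at 1 h and 10.6 and 9.73 CPM at 4 h). *PKS4*, a phytochrome kinase substrate that acts in phototropism, had 14.1 and 6.04 CPM at 1 h and 1.71 and 0.581 CPM at 4 h, the latter at the floor, a fall of at least 5.84-fold. *PAR2*, a small atypical helix-loop-helix protein that restrains shade avoidance, fell from 10.6 and 11.8 to 1.71 and 3.78 CPM (adjusted p = 0.0216). *PRE1* and *KDR*, of the same class but growth-promoting, fell 7.41-fold (31.8 and 43.1 to 3.43 and 6.68 CPM) and 6.09-fold (152 and 164 to 35.1 and 16.9 CPM). Their sun levels were 7.97 and 9.21 and then 2.21 and 6.17 CPM for *PRE1*, and 25.4 and 36 and then 17.9 and 17.1 CPM for *KDR*. *ATHB2*, the HD-ZIP gene most used as a shade marker, had a log2 change of -1.76 that narrowly missed the threshold (adjusted p = 0.0535), with 42.0 and 43.1 CPM at 1 h and 20.6 and 6.68 CPM at 4 h. *PIL1* and *HFR1*, early shade genes of seedlings, did not pass the test (-0.65 and -0.57, adjusted p = 0.457 and 0.643), nor did *PIF4* (-0.18, adjusted p = 0.568). The other members of the list that fell were *PAR1*, *BBX24*, *BBX25*, *CKX6*, *MIDA9* and *KAT1*. BBX24 and BBX25 are B-box proteins of light signalling and CKX6 degrades cytokinin. AT5G66580, an uncharacterized protein, fell 8.94-fold, from 70.7 and 86.8 to 5.99 and 11.6 CPM, and stood at 12 and 11.2 CPM and 4.19 and 5.46 CPM in sun. AT3G16117, another uncharacterized gene, had 6.92 and 14.4 CPM at 1 h of shade, a floor level at 4 h (at least 6.19-fold lower), and 0.249 and 9.77 CPM at 1 h of sun, so the sun pools disagreed. *BBX29*, a B-box gene, fell from 10.2 and 8.91 to 0 and 2.33 CPM, and AT1G26500, of the pentatricopeptide repeat family, from 4.11 and 7.18 CPM to the floor (at least 3.28-fold) beside 3.31 and 4.04 CPM at 4 h of sun. AT3G21320, annotated as an EARLY FLOWERING protein, had 6.49 and 3.16 CPM at 1 h of shade and 0 in the other 6 libraries.

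The lists for hormone synthesis and inactivation were short, with 8 to 11 tested genes each, so their counts of calls are small. The share called was 36.4% for GH3, 20% for gibberellin, 10% for ethylene and 9.09% for brassinosteroid genes, beside 4.12% of all tested genes. GH3 enzymes couple auxin or jasmonate to amino acids, and of 11 tested 2 fell and 2 rose. *GH3.5* fell 3.59-fold, from 89.8 and 67.0 to 30.8 and 12.8 CPM (adjusted p = 0.00621), and *GH3.3* 2.62-fold, from 70.1 and 47.7 to 32.5 and 12.5 CPM (adjusted p = 0.0368). The rises were AT5G13370 (1.53) and *JAR1* (0.86), whose product makes the active form of jasmonate, and without replicate 1 of 4 h shade 0 rose. None of 8 tested genes of auxin synthesis passed the test (limma), although *YUC9*, a flavin monooxygenase of the last step, had 11.2 and 6.32 CPM at 1 h and 4.28 and 0 CPM at 4 h (log2 change -2.04, adjusted p = 0.0890). Of the 8, 2 fell without replicate 1 of 4 h shade. *YUC3* had 1.08 and 5.17 CPM and then 0 in both libraries (adjusted p = 0.0774). *GA20OX2* and *GA3OX1*, the final enzymes of active gibberellin synthesis, both fell, by at least 4.18-fold (6.92 and 7.47 to 1.71 and 0.291 CPM) and 3.18-fold (11.5 and 11.5 to 2.57 and 4.65 CPM), as 2 of 10 gibberellin genes tested (5 without replicate 2 of 4 h shade). *GA3OX1* was at 9.70 and 8.55 CPM in the 4 h sun libraries, above the level of 4 h shade. *BAS1*, which inactivates brassinosteroids, fell 5.14-fold, from 25.1 and 19.5 to 1.71 and 6.98 CPM (adjusted p = 0.0124), the single call among 11 brassinosteroid genes. In the ethylene pathway, *ACO4*, an ACC oxidase, was the single call among 10 tested genes. It rose from 204 and 154 to 321 and 295 CPM (log2 change 0.79, adjusted p = 0.0307). *ACS8*, an ACC synthase, had 17.7 and 14.1 CPM at 1 h and 6.85 and 0.581 CPM at 4 h without passing the test (adjusted p = 0.0532). Without replicate 1 of 4 h shade the log2 changes of *ACO4* and *ACS8* were 0.73 and -3.41. The median of the ethylene list was then -0.07, against 0.21 with all libraries.

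Across genes, the change from 1 to 4 h in shade and the change over the same hours in sun ran together. The 2 contrasts share no library, and over the 18597 tested genes Pearson's r was 0.495 and Spearman's rho 0.476, given as a description since genes are not independent replicates. The sign agreed for 68.0% of tested genes, for 377 of the 394 rises and for 342 of the 372 falls. In sun 727 genes (3.91%) were called, 443 upwards and 284 downwards. The 2 sets of calls had 333 genes in common, 43.5% of the shade calls and 45.8% of the sun calls. The sun median was 0.72 log2 units for the genes that rose in shade and -0.67 for those that fell, against 0.07 over all tested genes. When the difference of the 2 changes was tested for each gene, 2 genes (0.0108%) passed, and 1041 had an unadjusted p below 0.05. The count tests called 4 genes (edgeR) and 16 genes (DESeq2), and limma called 28 and 192 without replicate 1 or 2 of 4 h shade and 0 without any 1 of the other libraries. With 2 libraries a condition, a miss in this test does not show that a gene changed alike in both lights.

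**Figure D3:**
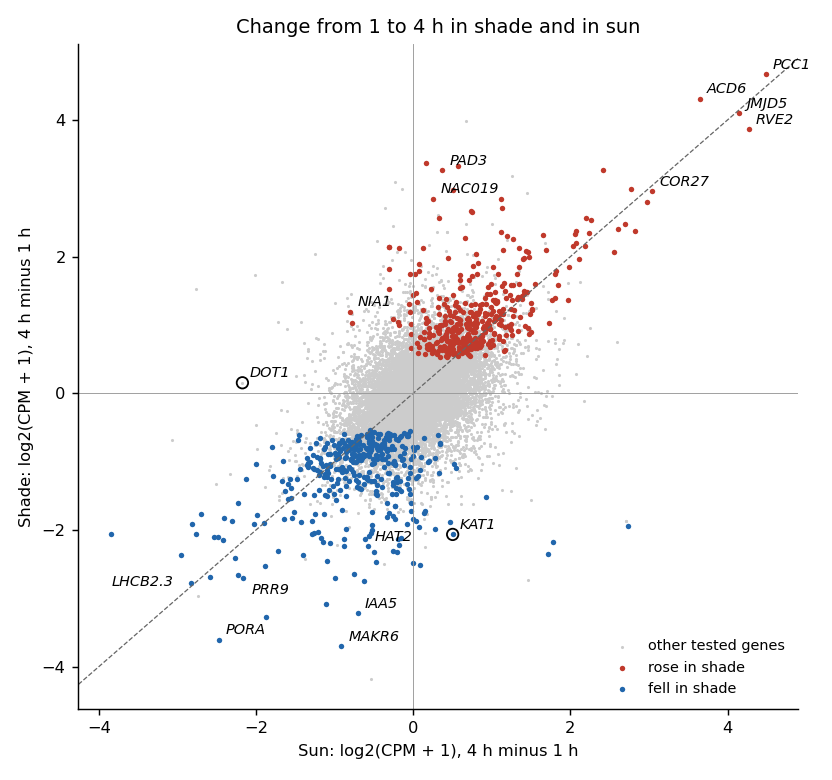
Change from 1 to 4 h in shade (vertical axis) against that in sun (horizontal axis), as differences of log2(CPM + 1), for the 18597 tested genes. Red and blue points are the 394 rises and 372 falls called in shade, grey points the other genes, the dashed line marks equal changes and the black rings mark *KAT1* and *DOT1*. Clock genes such as *JMJD5* and *COR27* lie near the dashed line, and *MAKR6*, *IAA5* and *HAT2* lie low on the left of the centre, with sun changes of -0.92, -0.71 and -0.58.

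*KAT1*, an inward potassium channel best known from guard cells, was 1 of the 2 genes whose shade and sun changes differed. It fell 4.32-fold in shade, from 85.2 and 86.2 CPM at 1 h to 22.3 and 17.44 CPM at 4 h (log2 change -2.07 ± 0.20, adjusted p = 1.05e-04), and in sun it was at 11 and 11.4 CPM and then 17.42 and 15.2 CPM (0.50 ± 0.20, adjusted p = 0.209). The difference was -2.57 ± 0.29 (adjusted p = 0.0110). The summed level of the 7 epidermis and guard cell markers, *KAT1* included, was 735 and 787 CPM at 1 h and 766 and 733 CPM at 4 h of shade, and most of it came from *FDH*, *PDF2* and *ATML1*, which mark the whole epidermis. Of the guard cell markers, *MYB60* had 12.5 and 13.8 CPM at 1 h and 7.71 and 9.01 CPM at 4 h of shade, and 8.97 and 8.65 CPM and then 14.1 and 16.6 CPM in sun, so its levels moved in the direction of those of *KAT1*. *FAMA* had 27.3 and 25.6 CPM and then 44.5 and 17.7 CPM in shade. In sun it had 21.4 and 20.4 CPM and then 34.0 and 36.3 CPM, so it was higher at 4 h there. The part of guard cell content in the *KAT1* values was not tested. *DOT1*, a glycine-rich protein gene with a part in leaf vein patterning, was the other, with 22.7 and 17.2 CPM at 1 h and 20.6 and 23.8 CPM at 4 h of shade (log2 change 0.15 ± 0.22, adjusted p = 0.732) against 43.3 and 43.8 CPM and 9.48 and 8.31 CPM in sun (-2.17 ± 0.22). The difference was 2.33 ± 0.31 (adjusted p = 0.0380), and with the replicate number as a block it did not pass (adjusted p = 0.0577). The 1 h shade level of *DOT1* was thus the one below its sun counterpart, and the 4 h level the one above. No gene rose in shade and was called as a fall in sun, and 2 genes fell in shade and were called as rises in sun, named here after their values were seen. AT1G18530, an EF-hand protein gene, had 1.3 and 5.46 CPM at 1 h of shade and 6.4 and 4.99 CPM at 4 h of sun and was at 0 in the other 4 libraries. AT2G01240, annotated as a reticulon-like protein, had 4.97 and 4.60 CPM and 2.21 and 2.37 CPM there, with at most 0.291 CPM in the other 4. Both rest on few reads, and the difference of their changes did not pass the test (adjusted p = 0.0785 and 0.0751). Leaving out either library of 1 h shade or any of the 4 sun libraries raised the p of both differences above the threshold, to adjusted p of 0.0606 to 0.379 for *KAT1* and 0.0693 to 0.508 for *DOT1*.

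Several of the 15 largest rises were in genes known from defence, described here as single genes, since no list of that kind was counted. *PCC1*, a small protein gene named for its control by pathogens and the clock, was at 0.433 and 1.15 CPM at 1 h and 36.8 and 51.7 CPM at 4 h of shade (log2 change 4.67 ± 0.40, adjusted p = 4.84e-05), and at 0.498 and 0 CPM and 18.7 and 37.0 CPM in sun. *ACD6*, a membrane ankyrin protein that promotes salicylic acid defence, rose 20.8-fold, from 9.52 and 3.45 to 127 and 144 CPM (adjusted p = 4.84e-05), and went from 17.2 and 6.70 to 145 and 149 CPM in sun. *WRKY54*, a transcription factor of the same pathway, went from 0.216 and 2.3 to 18.0 and 12.2 CPM in shade and from 3.98 and 1.40 to 24.9 and 20.7 CPM in sun. For these 3 genes both pools of 4 h shade and both pools of 4 h sun were above every pool of 1 h. AT2G25510, an uncharacterized gene, rose 7.65-fold in shade (14.9 and 21.0 to 184 and 90.4 CPM) and went from 21.9 and 10.3 to 117 and 135 CPM in sun. *RK3*, a receptor kinase, rose from 3.24 and 1.15 to 20.6 and 20.9 CPM (log2 change 2.85 ± 0.34, adjusted p = 5.43e-04) with a sun change of 1.12 that did not pass (adjusted p = 0.0928).

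Another 5 of the largest rises were larger in replicate 1 of 4 h shade than in replicate 2, and the sun plants had low levels of these genes at both times. *PAD3* and *CYP71A13* make the phytoalexin camalexin. *PAD3* was at 0 in both libraries of 1 h shade and at 19.7 and 3.49 CPM at 4 h, at least 15.3-fold higher (log2 change 3.27 ± 0.62, adjusted p = 0.0109), and *CYP71A13* went from 0.649 and 0 to 15.4 and 5.23 CPM, at least 13.7-fold. *CYP71A13* overlaps AT2G30766 on the other strand, itself among the rises (2.81 and 0.287 to 6.85 and 25.6 CPM) but higher in replicate 2, and the strand setting of the counting is not given. *TPS04*, a terpene synthase of herbivore-induced volatiles, was at 0 and 0 CPM at 1 h and at 18.8 and 4.36 CPM at 4 h (at least 15.4-fold, adjusted p = 0.00834). *SAG13*, a senescence-associated dehydrogenase, had 0.216 and 0.575 CPM and then 31.7 and 4.94 CPM (at least 24.2-fold), and *NAC019*, a transcription factor of jasmonate and abscisic acid responses, 1.51 and 0.575 CPM and then 33.4 and 4.94 CPM (adjusted p = 0.0285). In both libraries each gene was above its 1 h level, and the 4 h replicates differed 5.65-fold for *PAD3*, 4.32-fold for *TPS04*, 6.41-fold for *SAG13* and 6.76-fold for *NAC019*. The highest sun level of any of these 5 genes was 2.43 CPM, for *SAG13* at 4 h. Without replicate 1 of 4 h shade *SAG13* and *NAC019* no longer passed the test (adjusted p = 0.0731 and 0.151), and *PAD3*, *TPS04* and *CYP71A13* did (adjusted p = 0.0477, 0.0409 and 0.0349).

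Among jasmonate genes, *LOX2* and *AOC2* were likewise higher in replicate 1 of 4 h shade, and *JAR1* was not, with 55.7 and 53.8 CPM there. All 13 tested jasmonate synthesis genes had a higher mean at 4 h, and 3 of them passed the test, or 23.1% against 4.12% of all tested genes. The list median was 0.86 in shade and 0.45 in sun. *LOX2*, the lipoxygenase that starts the pathway in the chloroplast, had 147 and 163 CPM at 1 h and 1494 and 369 CPM at 4 h of shade (log2 change 2.25 ± 0.55, adjusted p = 0.0374), beside 464 and 151 CPM and 467 and 884 CPM in sun. *AOC2*, an allene oxide cyclase, had 32.2 and 41.1 CPM and then 286 and 80.8 CPM (adjusted p = 0.0326). Its sun libraries, 93.1 and 39.4 CPM at 1 h and 79.6 and 142 CPM at 4 h, also differed widely within a time. Among 20 tested jasmonate repressor and response genes none rose and 1 fell (limma), *ST2B*, a sulfotransferase gene, from 28.6 and 34.2 to 13.7 and 9.01 CPM (adjusted p = 0.0207). The share called was 5%, close to the 4.12% of all tested genes. Of the 20, 17 were higher and 3 lower at 4 h of shade. The list median was 0.56 log2 units in shade, and 0.13 without replicate 1 of 4 h shade. *TAT3*, a tyrosine aminotransferase induced by jasmonate, was at 0 in both libraries of 1 h and at 29.1 and 1.74 CPM at 4 h, and did not pass the test (adjusted p = 0.103). *VSP2*, a vegetative storage protein induced by wounding, was at 29.6 and 20.12 CPM at 1 h and 408 and 27.3 CPM at 4 h of shade (adjusted p = 0.353), but it was at 349.9 and 17.3 CPM at 1 h and 41.2 and 269.7 CPM at 4 h of sun, so it was high in 1 pool of each of 3 conditions. The wound and touch list had 1 rise among 22 genes, or 4.55% against 4.12% of all tested genes, in *WRKY33*, a regulator of camalexin synthesis (3.89 and 6.90 to 42.8 and 12.8 CPM, adjusted p = 0.0395). Of the calls in these 3 lists, 0, 0 and 0 rises were left without replicate 1 of 4 h shade, and without replicate 2 the rises numbered 12, 12 and 5. Whether the handling or depth of that library had a part in these values was not tested. Over all rises with more than 3 reads in both libraries, 30 of 394 (7.61%) were over 2-fold higher in replicate 1 than in replicate 2, against 5.64% of all tested genes with such reads.

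**Figure D4:**
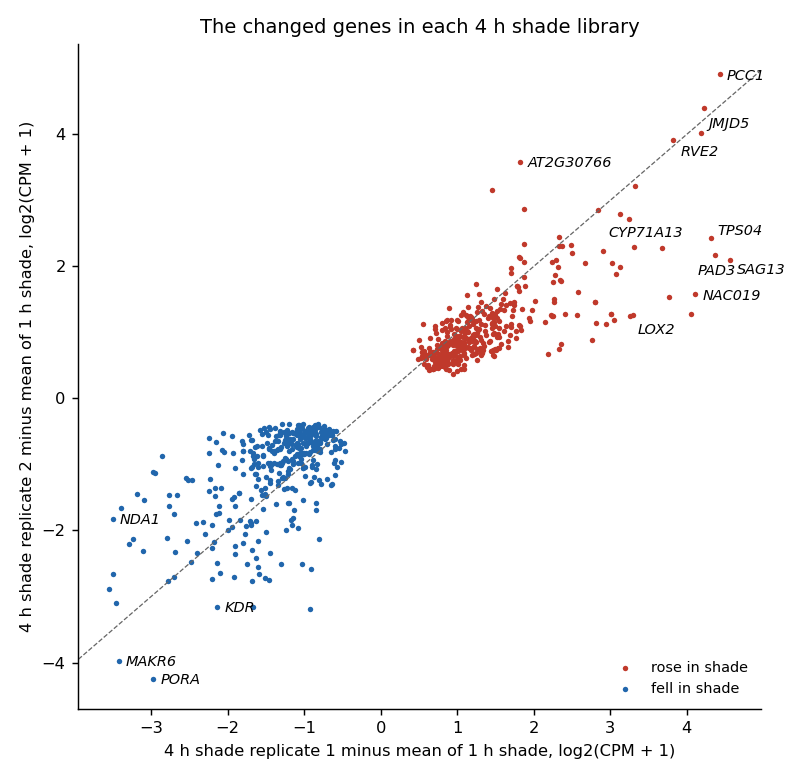
Level of each of the 766 called genes in the 2 libraries of 4 h shade, as the difference of log2(CPM + 1) from the mean of the 2 libraries of 1 h shade (horizontal axis replicate 1, vertical axis replicate 2). The dashed line marks equal changes. *PCC1*, *JMJD5* and *RVE2* lie on or near it, and *SAG13*, *PAD3*, *NAC019* and *LOX2* lie far to its right, with replicate 1 6.41, 5.65, 6.76 and 4.05 times as high as replicate 2.

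Calls among genes of starch breakdown were rises in shade as in sun. Of 18 tested 8 rose and none fell (limma), or 44.4% called against 4.12% of all tested genes. The median log2 change was 0.55 in shade and 0.62 in sun. *BAM3* (AT4G17090), the main chloroplast beta-amylase, went from 108 and 101 to 269.7 and 228 CPM in shade (log2 change 1.24 ± 0.14, adjusted p = 3.24e-04) and from 127 and 126 to 245 and 215 CPM in sun. *PHS2*, a cytosolic glucan phosphorylase, rose 1.95-fold (315 and 305 to 654 and 553 CPM), and *GWD1*, the water dikinase that phosphorylates starch, from 302 and 265 to 474 and 479 CPM. *PWD*, which adds the next phosphate, and *BAM2* (AT4G00490) rose by 0.83 and 1.02 log2 units. Of the list, 4 rose without replicate 1 of 4 h shade, and without replicate 2 11. In starch synthesis 11.8% of 17 tested genes were called, 1 in each direction. *GBSS1*, the granule-bound synthase that makes amylose, fell from 16.9 and 15.2 to 4.28 and 4.94 CPM (log2 change -1.60, adjusted p = 0.00963). *SBE2.1*, a branching enzyme, rose by 0.58 log2 units.

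Calls among cold-regulated genes were rises, without a call for the CBF factors that induce them in the cold. Of 15 tested 6 rose and none fell (limma), or 40% called against 4.12% of all tested genes. The median log2 change was 0.86 in shade and 0.42 in sun. Without replicate 1 of 4 h shade 4 rose with a median of 0.17, and without replicate 2 11 rose with a median of 0.94. *COR15A*, a chloroplast-protecting protein, went from 29.0 and 33.6 to 189 and 76.4 CPM (log2 change 1.91 ± 0.34, adjusted p = 0.00798). Replicate 1 was the higher, and without it the change was 1.27 (adjusted p = 0.0231). *COR15B* rose by 1.32 log2 units and *COR78* by 1.15. *KIN2* went from 149 and 156 to 294 and 273 CPM in shade and from 136 and 112 to 210.4 and 208 CPM in sun, and as a close copy of *KIN1* it is uncertain in its share of reads. *CBF2* and *CBF3* had log2 changes of -0.98 and -0.45 (adjusted p = 0.331 and 0.515).

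Nitrate and ammonium assimilation had 5 rises and no fall among 24 tested genes (limma), or 20.8% called against 4.12% of all tested genes. Of the 24, 22 were higher at 4 h, with a median of 0.46 in shade and 0.11 in sun. *BT2*, a BTB scaffold protein that restrains nitrate use, rose 6.96-fold, from 6.71 and 5.46 to 56.5 and 28.2 CPM (log2 change 2.54 ± 0.38, adjusted p = 0.00238), and went from 4.98 and 13.4 to 42.6 and 44.2 CPM in sun. *NIA1*, a nitrate reductase, went from 21.8 and 23.57 to 53.1 and 53.5 CPM in shade (log2 change 1.2 ± 0.22, adjusted p = 0.00963) and from 37.1 and 62.8 to 27.6 and 27.1 CPM in sun. The sun change of -0.80 did not pass the test (adjusted p = 0.0637), and the difference between the lights of 2.0 ± 0.31 did not pass the test (adjusted p = 0.0785). *NRT1.7*, a nitrate transporter of old leaves, rose by 1.45 log2 units and *BT1* by 1.31. Of these genes 2 rose without replicate 1 of 4 h shade, and without replicate 2 12.

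Ribosomal protein genes fell in number but by little. Of 271 tested, 51 fell and 1 rose (limma), 19.2% called against 4.12% of all tested genes, and 239 were lower at 4 h. The median log2 change was -0.54 in shade and -0.41 in sun, where 45 fell. AT2G40205 and AT3G56020, copies of the short gene for L41, fell the most, 5.10-fold (25.3 and 30.8 to 3.43 and 7.56 CPM) and 4.04-fold (108 and 125 to 16.3 and 41.3 CPM). As copies of each other they are uncertain in their share of reads. AT1G29965, an L18a gene, went from 94.1 and 137 to 37.7 and 42.7 CPM (log2 change -1.48), and AT3G53890, an S21 gene, from 200.3 and 189 to 40.2 and 128 CPM (-1.42). Replicate 1 of 4 h shade was the lower of the 2 for all 4 of these genes, and the list moved with that library: without it 19 members fell with a median of -0.28, and without replicate 2 170 fell with a median of -0.79.

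**Figure D5:**
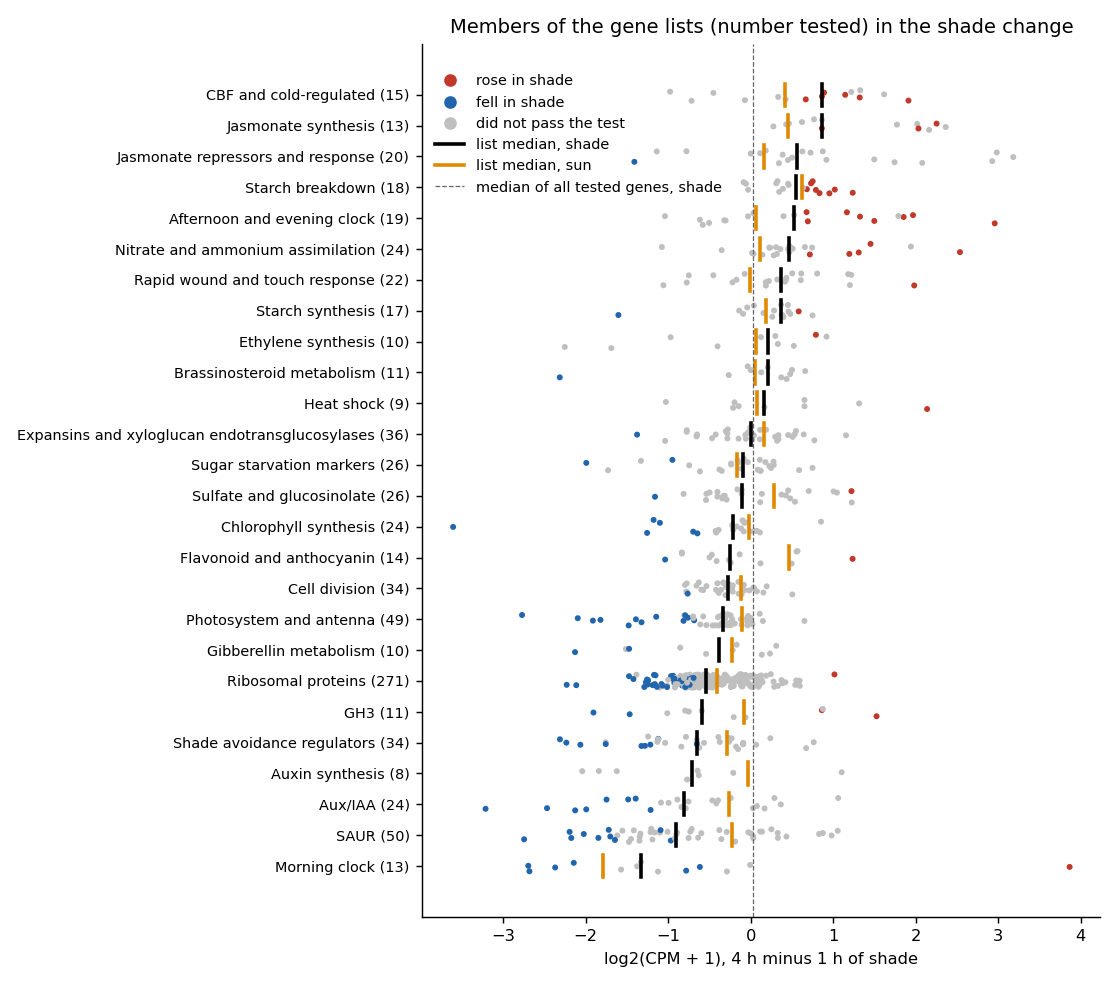
Members of the 26 gene lists in the comparison of 4 with 1 h of shade. Each point is a tested gene, placed by its difference of log2(CPM + 1), red where it rose, blue where it fell and grey where it did not pass the test. Black and orange bars are list medians in shade and in sun and the dashed line is the median of all tested genes in shade. The median of the morning clock list is -1.33, with *RVE2* alone at the far right, and those of the cold-regulated and jasmonate synthesis lists are both 0.86. Without replicate 1 of 4 h shade these 3 medians are -0.73, 0.17 and 0.43, and the order of the lists changes.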

How the data were processed

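RNA from 8 pools of leaves and shoot apices (sun and shade, 1 and 4 h, 2 pools each) was sequenced from mRNA libraries. According to the methods and the submitters' processing notes, the authors sorted reads by barcode, removed adaptors, mapped them with TopHat to the TAIR10 genome and used edgeR. The authors deposited 1 table of CPM per gene. The counting program, its strand setting, tool versions and the scaling are not given in the sources used here. Every CPM value was a whole multiple of the smallest value of its library (100% of values within 0.01 reads), which gave back the read counts. Depth ranged from 1154019 to 4680620 reads, and the values of different libraries did not sum to exactly the same total.

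The CPM values as deposited were tested on log2(CPM + 1) with limma 3.58.1 (R 4.3.3; trended empirical Bayes, 1 model of 4 conditions over 8 libraries, degrees of freedom 4 residual plus 9.33 prior). P-values were adjusted by Benjamini-Hochberg over all tested genes, with a call at 0.05. Fold changes on this scale understate those of low genes. The same fit gave the change in sun and the difference of both changes. Alternatives used pseudocounts of 0.25 and 5, no filter or a minimum of 5 CPM, quantile and median ratio scaling, a replicate block, the 4 libraries of a comparison alone, edgeR 4.0.16 and DESeq2 1.42.0 on the recovered reads, and each library left out. An exact permutation test of 2 against 2 libraries cannot go below p = 0.333 and was not used. The fit was tested on simulated data. Genes named are the 15 largest rises and falls without overlap between the times, up to 4 members of each of 26 lists past the test (or the largest changes, up to 2, given as values), genes whose shade and sun changes differ, and further members of the lists given as values after they were seen. The members and lists were chosen with earlier results of these data known. Gene names come from the RefSeq annotation of TAIR10.1, which held 32835 of the 33602 identifiers, and sequences from its genome. The promoter window of 1 further gene is not reported here. Of the 99 genes named by rule, 22 overlap another gene.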

Additional observations from a re-analysis of the deposited data

Results flagged for a closer look

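The difference between the shade change and the sun change passed the test over all genes for *KAT1* (adjusted p = 0.0110, limma) and for *DOT1* (adjusted p = 0.0380, limma). For *KAT1* the log2 change was -2.07 in shade and 0.50 in sun, with the 2 replicates of each condition close together. For *DOT1* it was 0.15 in shade and -2.17 in sun, and with the replicate number as a block the difference did not pass the test (adjusted p = 0.0577). No condition had 4 or more libraries, so single libraries were not tested as outliers.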

How the results depend on the processing

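The count of genes called in shade was 766 and stayed within 1.5 times of it with pseudocounts of 0.25 and 5 (700 and 815), a minimum of 5 CPM (796), quantile and median ratio scaling (771 and 791), edgeR (759) and DESeq2 (578). It was 51 at a threshold of 0.001, 479 with no filter on low values, 234 with the 4 shade libraries alone, and 151 to 3483 with 1 library left out. For sun (727) the counts were 45, 430 and, with the 4 sun libraries alone, 2241, and 85 to 1744 with 1 library left out. The difference between the lights (2) gave 0 genes at 0.001, 4 by edgeR, 16 by DESeq2 and 0 to 192 with 1 library left out, and *DOT1* missed the threshold with no filter (adjusted p = 0.0764, limma). Pearson's r between the changes was 0.419 and 0.593 with pseudocounts of 0.25 and 5, 0.439 with no filter, 0.599 with a minimum of 5 CPM and 0.399 to 0.503 with 1 library left out. Spearman's rho was 0.524 with a pseudocount of 5, 0.410 with no filter, 0.554 with a minimum of 5 CPM and 0.367 to 0.489 with 1 library left out. With 1 library left out, the log2 change of *SOB7* ranged from -0.025 to 1.35, that of *ZAT10* from -0.028 to 2.47 (their lowest values without replicate 1 of 4 h shade) and that of *DOT1* from -0.036 (without replicate 2 of 1 h shade) to 0.34, and none of the 3 had passed the test with all libraries. Of the 99 genes named by rule, 49 and 55 lost their call without replicate 1 or 2 of 1 h shade, 25 without replicate 1 of 4 h shade, 28 with the 4 shade libraries alone and 22 with DESeq2. The cause of these moves was not tested, apart from fewer samples or genes where a setting removes them.

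Replicate numbers were shared between conditions. The deviations of same-numbered libraries of 1 and 4 h shade correlated at 0.0147. Over all 6 pairs of conditions the values lay between -0.0460 and 0.109. No pairing by number was seen, but with 2 libraries a condition these values cannot exclude it. A replicate block gave 949 calls in shade (464 rises and 485 falls) and 1 for the difference between the lights, *KAT1* (adjusted p = 0.0160, limma), while *DOT1* lost its call (adjusted p = 0.0577, limma).

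The 1154019 reads of replicate 1 of 4 h shade limit the genes of low level, for which 3 reads there are 2.57 CPM.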

Other observations

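The remaining gene lists had few calls in number (limma, as in the comparison of 4 with 1 h of shade). Against 4.12% of all tested genes, the share called was 2.94% for cell division and 2.78% for expansins and xyloglucan endotransglucosylases. It was 14.3% for flavonoid and anthocyanin, 11.1% for heat shock and 7.69% each for sulfate and glucosinolate and for sugar starvation genes. Of 34 tested cell division genes 1 fell, *MCM3*, a subunit of the replicative helicase, from 49.7 and 48.3 to 24.0 and 33.7 CPM (adjusted p = 0.0459), and 28 had a lower mean at 4 h, with a list median of -0.28. *MCM5*, of the same helicase, had a log2 change of -0.80 (adjusted p = 0.0757). Of 36 expansins and xyloglucan endotransglucosylases, which loosen and remodel cell walls, 1 fell, *EXPB1* (13.6 and 22.7 to 4.28 and 8.72 CPM, adjusted p = 0.0494), with a median of 0.01, and *EXPA20* had a change of 1.16 (adjusted p = 0.0903). Without replicate 1 of 4 h shade the log2 change was -0.53 for *MCM3* and -0.94 for *EXPB1*, against -0.76 and -1.38 with all libraries.

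Of 14 flavonoid and anthocyanin genes *MYB111*, an activator of flavonol synthesis, rose (4.33 and 4.89 to 14.6 and 10.2 CPM, adjusted p = 0.0347) and *MYBL2*, a repressor of anthocyanin synthesis, fell (66.4 and 51.2 to 33.4 and 23.3 CPM, adjusted p = 0.0174). The list median was -0.25 in shade and 0.46 in sun. Of 26 sulfate and glucosinolate genes *LSU2*, a sulfur starvation gene, rose (3.46 and 4.89 to 13.7 and 8.72 CPM, adjusted p = 0.0494) and *SOT17*, a sulfotransferase of glucosinolate synthesis, fell (19.3 and 26.7 to 8.56 and 10.8 CPM, adjusted p = 0.0174), with a median of -0.11. Of 26 sugar starvation genes *DIN10*, a dark-induced gene, fell (128 and 85.4 to 55.7 and 51.7 CPM, adjusted p = 0.0394) and so did *EXL1*, from 2.81 and 3.16 CPM to 0 in both libraries of 4 h (at least 1.74-fold, adjusted p = 0.0249), with a median of -0.10.

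Of 9 heat shock genes *HSFB1*, a heat shock factor, rose (3.89 and 1.72 to 28.3 and 7.85 CPM, adjusted p = 0.0354), mostly in replicate 1 of 4 h shade, and shared all its values with AT4G36988. *HSP90.1*, a chaperone, had a change of 1.31 (adjusted p = 0.0762), and the median was 0.17. *ZAT10*, a zinc finger factor of the wound list, had 1.3 and 1.72 CPM at 1 h and 12.8 and 1.45 CPM at 4 h, and *SOB7*, a brassinosteroid-inactivating enzyme, 2.16 and 2.01 CPM and then 6.85 and 2.03 CPM, neither past the test (adjusted p = 0.297 and 0.444).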
